A study of Mus musculus with 58 samples.

Results

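This comparison asked what ruxolitinib, a drug that blocks JAK1 and JAK2 kinase activity, changed in the livers of old mice once livers with and without added Myc were analysed together. Its members are all 42 old libraries of the 58 in the series: 23 from mice given the drug and 19 from mice given vehicle. The mice were male C57BL6/J animals aged 24 or 25 months, and whole liver was sampled. Every one of them had received AAV8, a viral carrier taken up by hepatocytes, with the TBG promoter, which is active in hepatocytes and not in the other cells of the liver. In 25 mice the vector expressed Myc, a transcription factor that drives cell growth (11 with vehicle, 14 with ruxolitinib), and in 17 it expressed the red fluorescent protein mApple as a control (8 with vehicle, 9 with ruxolitinib). Ruxolitinib was given by gavage at 45 mg/kg, 2 times a day with weekend breaks, for 30 days, and vehicle by the same route. The 18 libraries of the first sequencing batch (8 drug, 10 vehicle) came from mice aged 25 months and the 24 of the second (15 drug, 9 vehicle) from mice aged 24 months, so age and batch cannot be told apart. One additive model held a term for drug, a term for vector and a term for batch, and the drug term is described here. A gene was called when its p-value, adjusted over all 13904 tested genes, was under 0.05, and fold changes are on the log2 scale, ruxolitinib minus vehicle, ± standard error. The labels name each library as a separate sample and do not describe cages or litters, so the p-values measure the spread between these samples.

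Cytokines such as interferons, interleukin 6 and growth hormone bind receptors that have no kinase of their own and borrow JAK kinases instead. The JAKs phosphorylate STAT factors, which enter the nucleus: complexes of STATs with IRF9 bind the interferon-stimulated response element (ISRE), and STAT dimers bind the gamma-activated site (GAS). In the liver, interferon induces antiviral genes, interleukin 6 acts through STAT3 on the acute-phase proteins, and pulses of growth hormone act through STAT5 on Igf1 and on the genes that differ between male and female livers.

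The libraries held between 10.7 and 40.98 M (mega) counts in exons, with a median of 16.6 M. All 16 hepatocyte markers were detected, with summed levels of 68973 to 220204 CPM (counts per M, on TMM-scaled library sizes) with the drug and 110710 to 251381 with vehicle. Libraries 860, 861, 864 and 865, all from ruxolitinib mice of the first batch, stood apart. The sum of 10 pan-leukocyte markers reached 2637 CPM in the drug group against 194 to 380 CPM in all vehicle livers, and without these 4 libraries it ran from 135 to 713 CPM in the drug group. Kupffer cell markers (12 genes) reached 5394 CPM with the drug and 952 CPM with vehicle, and neutrophil markers (13 genes) reached 1032 CPM in library 864 against 8.68 to 39.0 CPM with vehicle. Stellate cell and matrix markers (14 genes) were at 1502 CPM in library 865 and 1525 CPM in library 861, which had the lowest hepatocyte sum. These 4 were chosen from earlier results of these data. Library 868, also a ruxolitinib liver of the first batch, had leukocyte and Kupffer sums (713 and 1339 CPM) close to those of library 864 (739 and 1281 CPM) and stays in the fits without the 4. Leaving out library 868 alone gave 82 genes higher and 178 lower. In whole tissue, more cells of a type and more RNA per cell cannot be told apart. Counts below are therefore given with and without these 4 libraries. Myc itself, which checks the vector labels, had a median of 38.3 CPM (6.94 to 134) in Myc and 15.8 CPM (2.97 to 57.5) in mApple livers with vehicle. With the drug the medians were 33.3 CPM (24.7 to 112) and 7.76 CPM (2.38 to 19.5), and its drug term was -0.36 ± 0.23, adjusted p = 0.402. Library 870, labelled Myc with vehicle, held the lowest of these Myc values (6.94 CPM), below all 4 mApple vehicle livers of its batch (17.4 to 57.5 CPM), and so goes against its label. Library 855, labelled mApple with vehicle, held 57.5 CPM of Myc, above the Myc-labelled libraries 861 (51.3 CPM) and 871 (49.7 CPM) of the same batch. Libraries 855 and 870 were kept as labelled. Without library 870 the drug term called 277 genes (92 higher, 185 lower) and the Myc livers alone gave 60. Vector transcripts and the mouse gene are not separated in these counts.

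Ruxolitinib was followed by lower expression of 194 genes (1.4% of the 13904 tested) and higher expression of 119 (0.856%). Fitted alone, the mApple livers gave 52 lower genes (0.384%) and 1 higher (0.00738%), and the Myc livers 69 lower (0.502%) and 6 higher (0.0436%). Of the genes that rose, 113 of the 119, or 95%, were called in neither fit per vector, against 109 of the 194 that fell, or 56.2%. Without libraries 860, 861, 864 and 865 the gained genes were 22 higher and 114 lower, and without library 860 alone they were 44 and 126. The fits share libraries, so this gain is a description and has no test. Of the 113 gained risers, 102 were tested with each vector, and all 102 had a positive value in each. In 56 of them the unadjusted p was under 0.05 with each vector alone. Of the gained genes that fell, 103 were tested with each vector, all 103 were negative in each, and 87 had an unadjusted p under 0.05 in each. The pooled call rests on these same libraries, so it favours equal signs and small p-values in each vector. The gained risers had a median of 0.47 on the log2 scale, with 18 at 1 or more, and the gained genes that fell a median of -0.47, with 10 that fell by at least 1. For all genes that fell the median was -0.65, and 52 fell by at least 1. No called gene had drug and vehicle livers that did not overlap (0 of 313).

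**Figure D1:**
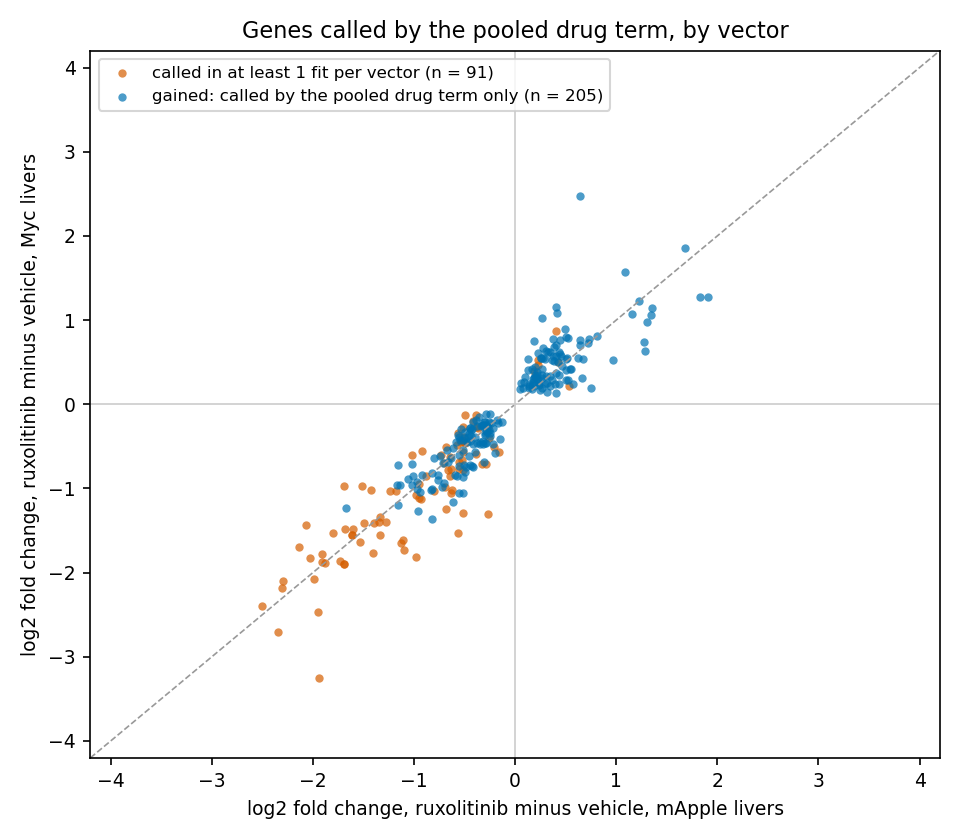
Log2 fold change of ruxolitinib against vehicle in mApple livers (horizontal) and in Myc livers (vertical) for the 296 of the 313 called genes that were tested with each vector; each point is a gene and the dashed line marks equal values. Gained genes are blue (205) and genes called with at least 1 vector are orange (91). In the pooled fit the gained genes that fell had a median of -0.47, against -0.65 for all genes that fell. Gained risers had a median of 0.47, as did all risers, and all 18 risers at 1 or more were gained. All 296 have the same sign on each axis, which the pooled call itself favours.

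The genes that fell were led by interferon-stimulated genes, and the binding sites of the STAT factors are short enough to search for. The ISRE core was searched as GAAANNGAAA and the GAS as TTCNNNGAA, on each strand, in the 250 bases before the start of each gene in RefSeq (GRCm38.p6). A promoter was matched by symbol for 143 of the 194 genes that fell, and 38 of these (26.6%) held an ISRE core, against 366 of 10678 tested genes with a promoter (3.43%) and 2.98% of all 32851 promoters. Gained genes alone gave 20 of 82 (24.4%), and the genes that rose 1 of 88 (1.14%). A GAS was present in 21 of the 143 genes that fell (14.7%), in 4 of 88 that rose (4.55%) and in 797 of the 10678 (7.46%). Its share among genes that fell differed between the lists described below. It was present in 2 of 27 type I interferon genes (7.41%), 6 of 9 interferon gamma targets and 1 of 8 direct STAT5 targets. Genes with several start sites counted once if any window held the letters, and a match is not a bound site. Printed here, 5′ to 3′ on the gene's strand and with matches in capitals, are Ifit1 (chr19:34640639-34640888, plus strand), which had the largest fall of the type I interferon list, Isg15 (chr4:156200819-156201068, minus strand) and Socs1 (chr16:10785537-10785786, minus strand), which gained their calls from pooling, Irgm2 (chr11:58214727-58214976, plus strand), which holds a GAS and an ISRE core side by side, and Skp2 (chr15:9140455-9140704, minus strand), the only riser with an ISRE core.
Ifit1: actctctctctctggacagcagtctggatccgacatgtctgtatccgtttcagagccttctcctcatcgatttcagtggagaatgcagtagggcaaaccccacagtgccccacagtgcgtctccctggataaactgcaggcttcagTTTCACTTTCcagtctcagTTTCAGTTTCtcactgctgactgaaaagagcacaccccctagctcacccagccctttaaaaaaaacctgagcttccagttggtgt
Isg15: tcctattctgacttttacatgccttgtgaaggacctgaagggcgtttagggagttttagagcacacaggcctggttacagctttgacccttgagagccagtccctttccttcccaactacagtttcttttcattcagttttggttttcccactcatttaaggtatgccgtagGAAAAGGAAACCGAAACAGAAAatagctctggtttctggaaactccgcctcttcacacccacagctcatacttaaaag
Socs1: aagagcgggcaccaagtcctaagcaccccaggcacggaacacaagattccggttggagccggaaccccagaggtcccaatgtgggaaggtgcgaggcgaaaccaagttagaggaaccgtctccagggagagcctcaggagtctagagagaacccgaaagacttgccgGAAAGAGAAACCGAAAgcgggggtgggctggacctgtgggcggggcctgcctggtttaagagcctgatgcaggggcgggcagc
Irgm2: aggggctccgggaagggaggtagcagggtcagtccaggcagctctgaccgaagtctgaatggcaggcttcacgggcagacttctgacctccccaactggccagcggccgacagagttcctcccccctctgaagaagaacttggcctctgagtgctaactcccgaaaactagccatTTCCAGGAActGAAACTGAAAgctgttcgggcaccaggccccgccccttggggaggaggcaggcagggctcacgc
Skp2: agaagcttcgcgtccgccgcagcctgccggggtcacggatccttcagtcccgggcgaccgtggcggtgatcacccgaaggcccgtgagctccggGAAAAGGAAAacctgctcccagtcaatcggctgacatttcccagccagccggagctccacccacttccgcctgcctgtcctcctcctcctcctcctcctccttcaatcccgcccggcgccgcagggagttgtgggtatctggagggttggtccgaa
In Ifit1 the core occurs 2 times, read on the opposite strand, at bases -104 to -95 and -85 to -76 before the start. Isg15 has 3 overlapping cores from -78 to -57 and Socs1 has 2 from -83 to -68. In Irgm2 the GAS (-75 to -67) and the core (-64 to -55) lie next to each other. The core of Skp2 lies at -156 to -147.

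Of 25 tested cytokine and hormone receptors that use JAKs, 2 fell and none rose, beside 1.4% and 0.856% of all tested genes. The drug effect differed between the batches for 13 of the 25, beside 20.6% of all tested genes. The list medians were 0.28 in batch 1 and -0.13 in batch 2. In the fit without the 4 libraries 3 fell, Osmr being added. Il6st, the shared signalling chain of the interleukin 6 family, ran from 51.2 to 235 CPM with vehicle (median 117) and 53.5 to 144 CPM with the drug (median 108), a change of -0.42 ± 0.077, adjusted p = 0.000498. Lifr, the receptor of leukaemia inhibitory factor, gained its call from pooling: 72.7 to 235 CPM (median 141) with vehicle and 50.1 to 181 CPM (median 108) with the drug, -0.42 ± 0.081, adjusted p = 0.00127. The ranges of each overlapped widely when batches were put together. In the first batch Il6st ran from 51.2 to 117 CPM with vehicle and 53.5 to 106 CPM with the drug. In the second it ran from 134 to 235 CPM with vehicle and 93.4 to 144 CPM with the drug. The ranges of Lifr overlapped within each batch. None of the 4 Janus kinases was called: Jak1 was at -0.04 ± 0.058, Jak2 at -0.01 ± 0.073, Jak3 at -0.11 ± 0.11 and Tyk2 at 0.10 ± 0.055. The adjusted p was 0.785 for Jak1 and 0.965 for Jak2. Jak1 had opposite values in the batches, 0.16 and -0.21.

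Of 8 genes for STAT factors and Irf9, 4 fell, beside 1.4% of all tested genes. Irf9, the DNA-binding partner of the STATs in interferon signalling, had 26.7 to 70.1 CPM with vehicle (median 47.4) and 10.5 to 40.1 CPM with the drug (median 19). In 16 of the 23 drug livers it lay below the lowest vehicle liver, and it fell by 1.15 ± 0.13, adjusted p = 1.61e-07. Stat2, its partner, fell from 68.0 to 124 CPM (median 100) to 45.1 to 90.4 CPM (median 59.2), -0.57 ± 0.076, adjusted p = 2.91e-06, with all 23 drug livers below the vehicle median. Stat3, the carrier of the interleukin 6 signal, changed by -0.57 ± 0.095, adjusted p = 0.000134, from a median of 188 to 131 CPM. In this list 4 genes did not pass the test.

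The inhibitors listed here restrain the pathway, and many of them, though not all, are induced by it. Of 18 tested, 4 fell and 1 rose, beside 1.4% and 0.856% of all tested genes. Socs2 (chromosome 10, 95411490 to 95416857, minus strand), induced by growth hormone through STAT5, ran from 3.78 to 46.2 CPM with vehicle (median 15.7) and from 1.5 to 19.5 CPM with the drug (median 3.34). In 13 of 23 drug livers it was below the lowest vehicle liver, and the change was -2.24 ± 0.26, adjusted p = 2.16e-07. Cish, likewise a STAT5 target, had a median of 22.3 CPM (5.75 to 55.5) against 3.86 CPM (0.691 to 29.0), -2.17 ± 0.38, adjusted p = 0.00026. Library 1143 held the highest value of the drug group for each of these 2 genes. For Cish, drug library 1152 was close to it (28.8 against 29.0 CPM), and each lay above the vehicle median. Usp18, which detaches ISG15 and blocks the interferon receptor, went from a median of 18.4 to 5.93 CPM, -1.74 ± 0.27, adjusted p = 4.99e-05. Socs1, whose promoter is shown above, was scarce (0.154 to 1.63 CPM with vehicle, 0.115 to 0.879 CPM with the drug) and passed with pooling only, -0.89 ± 0.245, adjusted p = 0.0396. Its call was lost on leaving out any 1 of 10 libraries. The riser was Pias3, an inhibitor of STAT3: 7.11 to 11.8 CPM with vehicle (median 9.88) and 8.31 to 15.8 CPM with the drug (median 11), 0.31 ± 0.060, adjusted p = 0.00127. In 9 of 23 drug livers Pias3 exceeded the highest vehicle liver.

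Type I interferon-stimulated genes fell as a group. Of 57 tested, 38 fell and 0 rose, beside 1.4% and 0.856% of all tested genes, and the list's median was -0.72 (0.03 over all genes). All 57 values were negative. Without the 4 libraries that stood apart 39 of the 57 fell, with a median of -0.79. Pooling added 9 of the 38. Ifit1 (chromosome 19, 34640889 to 34650009), which encodes a sensor of foreign RNA caps, had 2.56 to 96.1 CPM with vehicle (median 25.4) and 1.3 to 15.7 CPM with the drug (median 4.36). Every drug liver was below the vehicle median and 15 of the 19 vehicle livers were above the highest drug liver; it fell by 2.31 ± 0.29, adjusted p = 6.6e-07. Ifit3, its neighbour and binding partner, had medians of 28.9 and 7.05 CPM, -1.83 ± 0.25, adjusted p = 5.08e-06.

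Rsad2, which makes a chain-terminating nucleotide, ran from 4.72 to 156 CPM with vehicle (median 22.4) and from 2.01 to 30.2 CPM with the drug (median 6.26), -1.95 ± 0.31, adjusted p = 7.41e-05. Its genomic neighbour Cmpk2, a nucleotide kinase, changed by -1.77 ± 0.23, from a median of 17.3 to 5.58 CPM. Mx2, a dynamin-like GTPase, was below the lowest vehicle liver in 14 of 23 drug livers, -1.56 ± 0.18. For Rtp4 all 23 drug livers (2.59 to 27.0 CPM) were below the vehicle median of 37.7 CPM, -1.80 ± 0.21. Parp14, an ADP-ribosyltransferase, was below the lowest vehicle liver in 18 of 23 drug livers (32.4 to 86.6 CPM with vehicle, 13.6 to 55.4 CPM with the drug), and fell by 1.09 ± 0.12. Adar, which edits double-stranded RNA, had the smallest change of those named here, -0.83 ± 0.10, yet 16 of 23 drug livers were below the lowest vehicle liver. Oas1b, of the family that senses double-stranded RNA, was at a median of 3.65 CPM with vehicle and 1.34 CPM with the drug, -1.38 ± 0.17.

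Several familiar interferon genes were called after pooling alone. Isg15, the ubiquitin-like modifier, had 3.86 to 63.2 CPM with vehicle (median 9.88) and 2.00 to 34.7 CPM with the drug (median 4.99), -1.09 ± 0.30, adjusted p = 0.0383. It was -0.96 ± 0.41 with mApple (adjusted p = 0.457) and -1.27 ± 0.41 with Myc (adjusted p = 0.203). The vehicle medians were 6.07 CPM with mApple and 18.8 CPM with Myc. The pooled call of Isg15 was lost without any 1 of 9 libraries. Ddx60 (-0.99 ± 0.21, adjusted p = 0.00475) and the RNA sensors Dhx58 (-0.92 ± 0.215, adjusted p = 0.0113) and Ifih1 (-0.50 ± 0.14, adjusted p = 0.0475) joined it, and the call of Ifih1 did not hold on leaving out any 1 of 27 libraries. Outside this list, Slfn5, a Schlafen protein, was also gained: 18 of 23 drug livers (2.78 to 20.1 CPM) were below the lowest vehicle liver (11 to 37.2 CPM), -0.95 ± 0.17, adjusted p = 0.000386, and the call held without any single library. Oas3, of the list, (-1.39 ± 0.37, adjusted p = 0.0312) and Ifi211, outside it, (-1.02 ± 0.24, adjusted p = 0.0128) differed between batches: -0.16 and -2.43 for Oas3, and -0.22 and -1.69 for Ifi211. Without the 4 libraries they were -1.91 (adjusted p = 0.000602) and -1.49 (adjusted p = 1.78e-05).

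Targets of interferon gamma fell too, with 14 of 25 lower, 0 higher and a median of -0.82 (14 lower and -0.86 without the 4 libraries). Over all tested genes 1.4% were lower and 0.856% higher. Pooling added 5 of the 14. Irgm2, an immunity-related GTPase that guards membranes against intracellular microbes, had 50.9 to 177 CPM with vehicle (median 103) and 14.7 to 82.0 CPM with the drug (median 30.9). All 23 drug livers were below the vehicle median and 16 below the lowest vehicle liver, -1.60 ± 0.18, adjusted p = 1.61e-07. Its relatives Irgm1 (-1.01 ± 0.13), Igtp (-1.34 ± 0.21) and Ifi47 (-1.03 ± 0.135) fell too. Gbp6, a guanylate-binding protein, was a gained call at -1.07 ± 0.29, adjusted p = 0.0399, and was not called without the 4 libraries (-1.01, adjusted p = 0.124). Of the 9 genes of this list that fell and had a matched promoter, 8 held an ISRE core and 6 a GAS, as in Irgm2 above. Among 20 genes of MHC class I and peptide processing 1 fell: Tap1, the peptide transporter, from a median of 42.3 to 27.8 CPM, -0.51 ± 0.11, adjusted p = 0.0047, gained. The median of that list was -0.16, and 19 of the 20 were negative, beside 5976 of all 13904 tested genes. Outside these lists the gained set also held H2-T24 (-0.97 ± 0.20) and the apolipoproteins Apol9a (-1.08 ± 0.25) and Apol9b (-0.93 ± 0.21), close copies whose reads can be shared.

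Growth hormone targets were the other large group. Of 18 direct STAT5 targets 9 fell and 1 rose (median -0.40), beside 1.4% and 0.856% of all tested genes. The same count of 9 fell without the 4 libraries. Besides Socs2 and Cish, Igf1 (chromosome 10, 87859052 to 87937047), the hormone through which growth hormone acts on the body, had 379 to 736 CPM with vehicle (median 514) and 233 to 547 CPM with the drug (median 381). In 11 of 23 drug livers it was below every vehicle liver. Its change of -0.39 ± 0.085 was small, adjusted p = 0.00495, and gained from pooling (adjusted p = 0.0599 with mApple and 0.205 with Myc). Igfals, the protein that keeps IGF1 in the blood, was at a median of 80.7 CPM (55.4 to 102) against 50.1 CPM (21.9 to 88.4), -0.70 ± 0.13, adjusted p = 0.000688. Egfr, the epidermal growth factor receptor and a growth hormone target in the liver, was at a median of 343 CPM (109 to 499) with vehicle and 167 CPM (81.1 to 388) with the drug, -1.05 ± 0.14, adjusted p = 3.97e-06. Onecut1, a hepatocyte transcription factor, had a median of 7.25 CPM (2.56 to 40.1) against 2.28 CPM (0.857 to 18), -1.83 ± 0.36, adjusted p = 0.00162. Bcl6, a repressor that growth hormone lowers through STAT5, was at 0.76 ± 0.39, adjusted p = 0.29, and thus not called. The riser of this list was the cell cycle inhibitor Cdkn2c.

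Genes expressed more in male livers depend on pulses of growth hormone. Of 34 tested, 8 fell and 0 rose, beside 1.4% and 0.856% of all tested genes. The median was -0.54, and 32 were negative, beside 5976 of all 13904 tested genes. The steroid dehydrogenase Hsd3b5 ran from 0.430 to 126 CPM with vehicle (median 32.3) and from 0.0634 to 121 CPM with the drug (median 1.72), -2.70 ± 0.63, adjusted p = 0.0102. The mApple livers of the second batch did not show this fall. They held 18.2, 59.6, 68.2 and 126 CPM of Hsd3b5 with vehicle and 1.12, 66.7, 91.6, 94.6 and 121 CPM with the drug. Without the 4 libraries, all at or below 0.321 CPM, it was at -2.15, adjusted p = 0.0513. Keg1 was steadier: all 23 drug livers (9.79 to 114 CPM) were below the vehicle median of 142 CPM, -1.37 ± 0.22, adjusted p = 7.41e-05. The pseudogene Serpina4-ps1 (-2.54 ± 0.43), the nucleotide hydrolase Nudt7 (-0.93 ± 0.19) and the complement gene C4a (-0.59 ± 0.11) also fell. Cyp7b1, an oxysterol hydroxylase (-0.70 ± 0.18, adjusted p = 0.0285), was gained, and it was not called without the 4 libraries (adjusted p = 0.165). The list's median was -0.89 in the first batch, -0.27 in the second and -0.33 without the 4 libraries, where 5 of 34 fell. Libraries 860, 861, 864 and 868 also had high leukocyte sums, whose part in this list was not tested.

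Of 40 genes higher in female livers, 2 rose and 1, Lifr, fell, beside 0.856% and 1.4% of all tested genes. The list's median was 0.33 (0.38 without the 4 libraries, where 4 rose). The 2 were Cyp2b10 and Cd36, a fatty acid transporter at 34.7 to 116 CPM with vehicle (median 67.1) and 50.2 to 197 CPM with the drug (median 89.9), 0.50 ± 0.14, adjusted p = 0.038. Cd36 was not called without the 4 libraries (0.34, adjusted p = 0.321) and its call was lost without any 1 of 19 libraries.

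**Figure D2:**
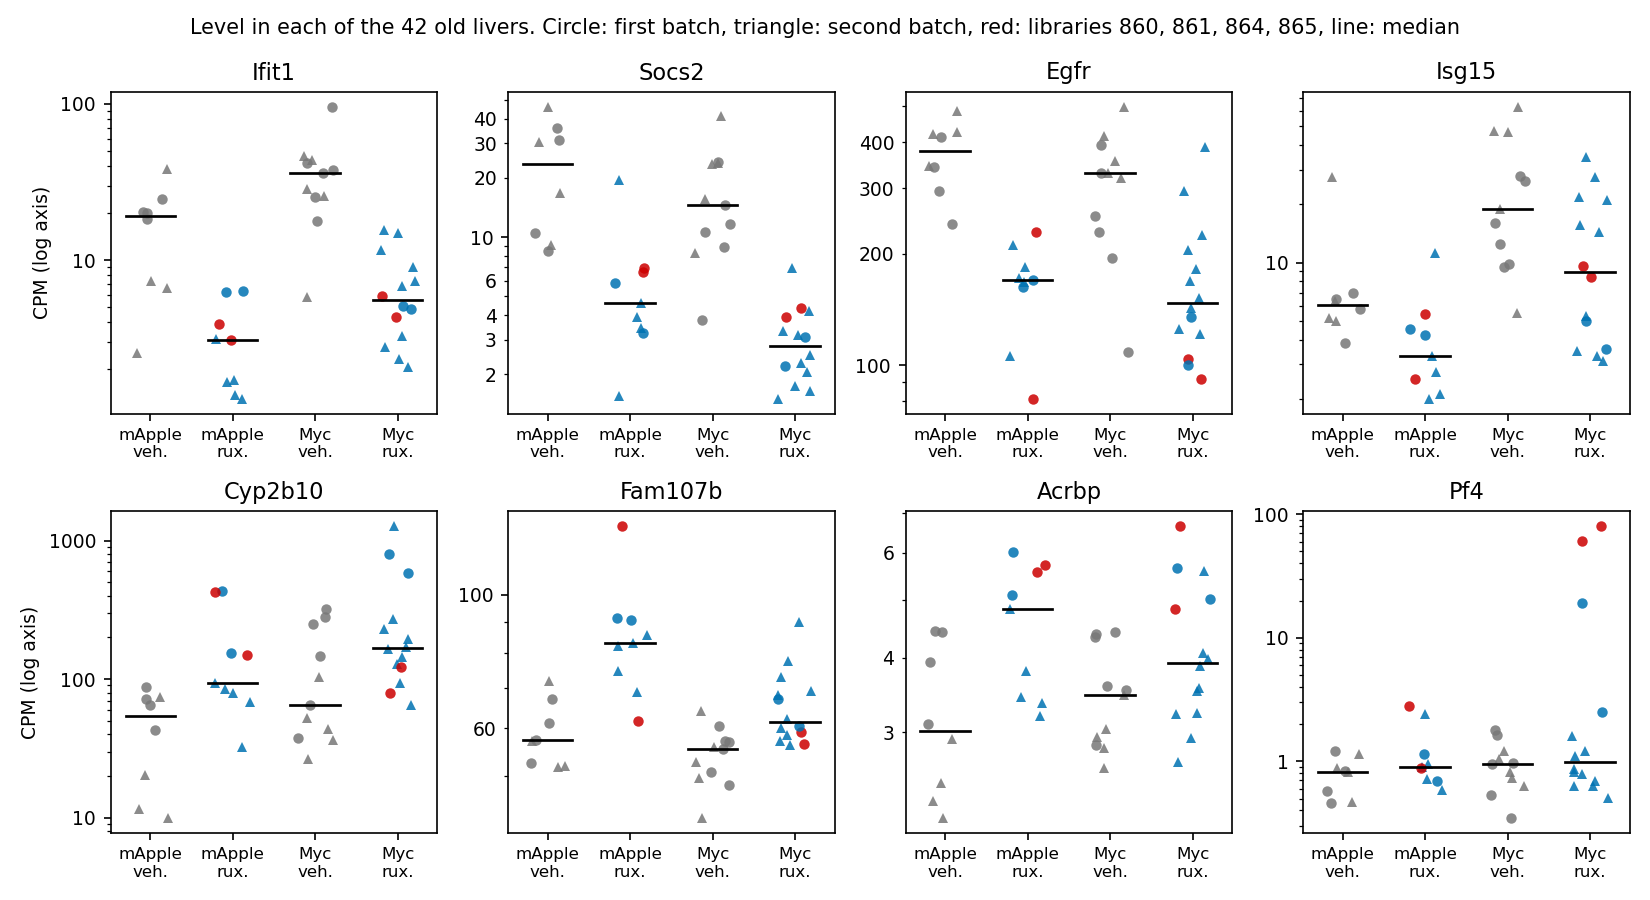
CPM on a log axis of 8 genes in each of the 42 old livers, by vector and drug; circles are libraries of the first batch, triangles of the second, red marks libraries 860, 861, 864 and 865, and lines are medians. Ifit1, Socs2 and Egfr lie lower with the drug under each vector, Fam107b, Cyp2b10 and Acrbp lie higher with overlap, Isg15 differs more between the vectors, and the high Pf4 values come from a few libraries of the first batch (80.4 CPM in library 860).

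The complement components C8b (187 to 441 CPM with vehicle, 104 to 374 CPM with the drug; -0.42 ± 0.093, adjusted p = 0.00539) and Hc, complement factor 5 (-0.38 ± 0.094, adjusted p = 0.021), were gained genes that fell, and Hc was not called without the 4 libraries (-0.32, adjusted p = 0.0937). Xbp1, a transcription factor of the secretory pathway that is listed here with plasma cell genes and is also a hepatocyte gene, fell by 0.35 ± 0.083, adjusted p = 0.0123, and 13 of 23 drug livers were below the lowest vehicle liver. E2f8, an atypical E2F repressor, was the single member of 46 proliferation genes that fell (-0.71 ± 0.19, adjusted p = 0.0377). Chac1, a glutathione-degrading enzyme of the integrated stress response, changed by -1.08 ± 0.28, adjusted p = 0.027. Chac1 was not gained, having been called with Myc alone.

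The genes that rose were spread thinly over the lists. Fam107b, a gene of little known function, had 42.5 to 71.8 CPM with vehicle (median 55.7) and 56.3 to 130 CPM with the drug (median 69.0). All 23 drug livers were above the vehicle median and 10 were above the highest vehicle liver. Its change was 0.41 ± 0.071, adjusted p = 0.000232, with 0.53 in mApple livers (adjusted p = 0.0696) and 0.29 in Myc livers (adjusted p = 0.131). Without the 4 libraries it was 0.39, adjusted p = 0.000108. Acrbp, known as an acrosome protein, was scarce, with 2.15 to 4.43 CPM against 2.68 to 6.66 CPM (medians 3.10 and 3.97), 0.48 ± 0.080, adjusted p = 0.000121. Adora1, the adenosine A1 receptor, was at a median of 19.1 CPM (11.6 to 28.7) with vehicle and 27.8 CPM (18 to 67.5) with the drug. In 11 of 23 drug livers it exceeded all vehicle livers, 0.58 ± 0.115, adjusted p = 0.00184. Mybph, a muscle myosin-binding protein also detected here, had all 23 drug livers above the vehicle median of 1.69 CPM, 0.70 ± 0.15, adjusted p = 0.00381.

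Egln3, a prolyl hydroxylase that marks hypoxia-inducible factors for decay, had been called with Myc alone and stayed in the pooled fit: 8.46 to 20.7 CPM (median 14.5) against 11 to 45.5 CPM (median 19.1), 0.48 ± 0.090, adjusted p = 0.000822. Irs1, the insulin receptor substrate, rose by 0.32 ± 0.072, adjusted p = 0.00833. Irs1 differed between batches, at 0.11 in batch 1 and 0.45 in batch 2 (adjusted p = 0.0492 for the difference), and was 0.38 without the 4 libraries, adjusted p = 0.000872. Sipa1l2, a GTPase activator (0.68 ± 0.15, adjusted p = 0.00495), and Agpat1, an enzyme of glycerolipid synthesis (0.39 ± 0.082, adjusted p = 0.00311), differed more in the first batch, with 1.13 and 0.62 there against 0.34 and 0.21 in the second. Agpat1 had a lower median with the drug (12.5 CPM) than with vehicle (17.1 CPM) when batches were put together. Within batches its medians were 20.8 CPM with vehicle and 31.2 CPM with the drug in the first, and 10.4 and 12.0 CPM in the second. Cnnm4, a magnesium transporter (0.40 ± 0.080, adjusted p = 0.00225), and Gskip, a partner of the kinase GSK3 (0.40 ± 0.084, adjusted p = 0.00387), were gained, with adjusted p = 0.0554 and 0.0732 without the 4 libraries.

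Drug metabolism genes included the largest rise still called without the 4 libraries. Cyp2b10 (chromosome 7, 25897658 to 25926624), a cytochrome P450 that the nuclear receptor CAR induces, had 9.91 to 323 CPM with vehicle (median 64.9) and 32.3 to 1281 CPM with the drug (median 149). In 22 of 23 drug livers it was above the vehicle median, and 5 were above every vehicle liver. The change was 1.85 ± 0.35, adjusted p = 0.000822, gained from 1.68 ± 0.39 with mApple (adjusted p = 0.0822) and 1.86 ± 0.54 with Myc (adjusted p = 0.154). By batch it was 1.59 (the first) and 1.93 (the second). Gstm3, a glutathione transferase, was at a median of 159 CPM (54.4 to 844) against 391 CPM (45.6 to 1154), 1.13 ± 0.30, adjusted p = 0.0342, and at 0.97, adjusted p = 0.137, without the 4 libraries.

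In all, 2 of 26 targets of CAR and its relative PXR rose with all libraries (median 0.16), and 5 of 26 rose without the 4 (median 0.32). Over all tested genes 0.856% rose with all libraries and 0.221% without the 4. The added ones were Cyp2b13 (1.52, adjusted p = 0.00733), Cyp2c55 (0.94, adjusted p = 0.0133), Cyp3a11 (0.56, adjusted p = 0.0266) and Cyp2a4 (0.94, adjusted p = 0.0419). With all 42 libraries these were 1.14, 0.77, 0.37 and 0.94, with adjusted p of 0.104, 0.0868, 0.266 and 0.0889. Cyp3a11, the most abundant of them, ran from 1732 to 4673 CPM with vehicle and from 900 to 7102 CPM with the drug, with 12 drug livers above and 3 below every vehicle liver. Of 23 NRF2 antioxidant genes 2 rose, Gstm3 and the carbonyl reductase Cbr3 (1.34 ± 0.36, adjusted p = 0.038), and 0 of the 23 passed without the 4 libraries. A further carbonyl reductase, Cbr1, rose by 0.37 ± 0.10, adjusted p = 0.0474, and was also called without them (0.39, adjusted p = 0.0298). The call of Cbr1 was lost without any 1 of 25 libraries. Members of these P450 and transferase families are close in sequence and may share reads.

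Of 46 proliferation genes 45 had positive values with a median of 0.65, but 1 rose, Ccna2, the cyclin of DNA synthesis (0.69 ± 0.19, adjusted p = 0.0405). It ran from 2.23 to 24.6 CPM with vehicle (median 4.84) and from 3.21 to 46.9 CPM with the drug (median 8.39). Without the 4 libraries the list's median was 0.38 and none rose, with Ccna2 at 0.45, adjusted p = 0.42. Regulators outside the list were called as well: the inhibitors Cdkn2c (0.58 ± 0.14, adjusted p = 0.0143) and Cdkn1b (0.20 ± 0.054, adjusted p = 0.0315), and Skp2, which marks CDKN1B for destruction (0.61 ± 0.14, adjusted p = 0.00949). None of these 3 was called without the 4 libraries, where adjusted p was 0.21, 0.274 and 0.142. Cdkn2c had similar values in each batch, 0.63 and 0.56.

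Some risers had high values in few livers. Ngp, a neutrophil granule protein, was at 224 CPM in library 864, at 8.62 CPM in library 861 and at no more than 8.01 CPM in any other drug liver, while vehicle livers reached 3.38 CPM. Its fitted value of 3.61 ± 0.88, adjusted p = 0.0169, was the largest of all called genes, and it became 0.81, adjusted p = 0.749, without the 4 libraries. Pf4, the platelet factor and a chemokine also made by macrophages, was at 80.4 CPM in library 860 and 60.9 CPM in library 861, with medians of 0.898 CPM with the drug and 0.833 CPM with vehicle. It was at 2.09 ± 0.56, adjusted p = 0.0325, and at 1.10, adjusted p = 0.105, without the 4. Ly6d (1.51), Cdc25b (0.87), Mest (0.70), H19 (1.18) and Cntnap1 (0.92) likewise lost their calls without them. For Ly6d, Cdc25b and Mest the drug effect differed between the batches (adjusted p = 0.0174, 0.00802 and 0.0449).

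Over all 119 risers, 16 were called without the 4 libraries, as were 145 of the 194 genes that fell. All 119 and all 194 kept their sign. In all 4 combinations of vector and batch, 103 of the 119 and 178 of the 194 had the sign of the drug term. The genes were called from these same libraries, which favours equal signs, so these sign counts do not test the calls. The median of the risers went from 0.47 to 0.31, and that of the genes that fell from -0.65 to -0.58. The fit without the 4 called 31 higher (0.221% of 13996) and 216 lower (1.54%). Of the 31, 15 were not called with all 42, among them Pnldc1, an RNA-trimming exonuclease (0.68, adjusted p = 0.000707). Among the 113 gained risers 12 were called without the 4: Acrbp, Fam107b, Cyp2b10, Pias3, Adora1, Mybph, Dqx1, Cpm, Pxylp1, Mkln1os, Slc2a4rg-ps and Cbr1. Egln3, D1Ertd622e, Sipa1l2 and Irs1 complete the 16.

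**Figure D3:**
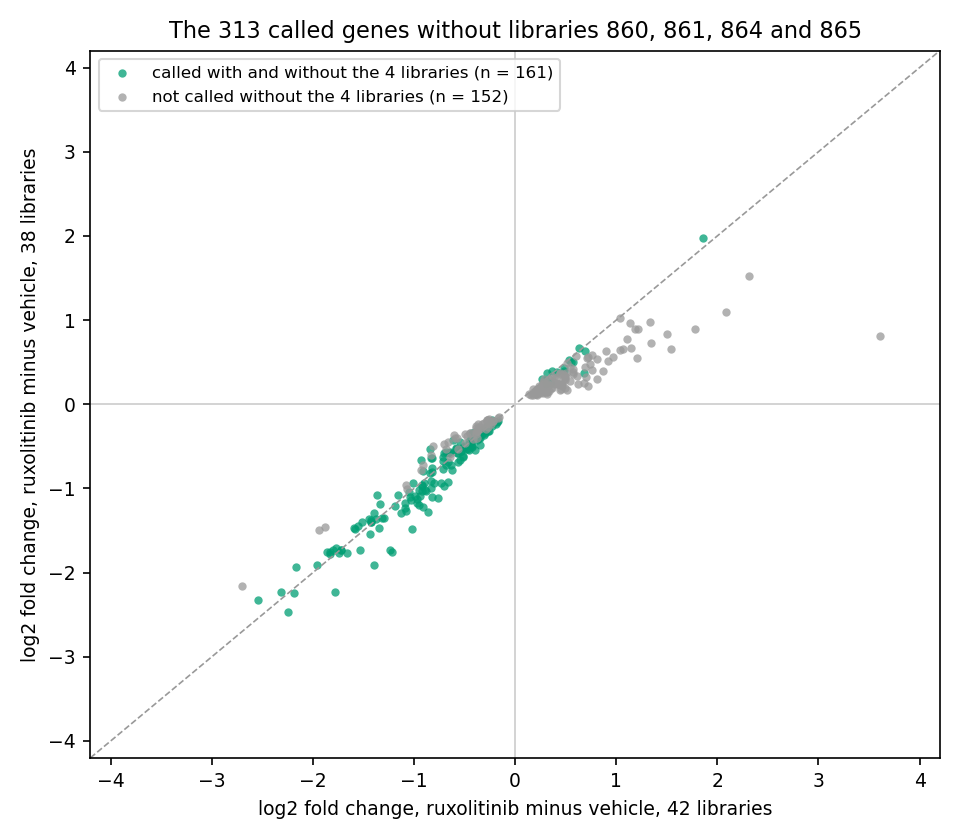
Log2 fold change of the 313 called genes with all 42 libraries (horizontal) and with the 38 left after removing 860, 861, 864 and 865 (vertical); green points were called in each fit (161) and grey points were not called in the smaller fit (152), and the dashed line marks equal values. Most genes that fell stay on the line, while most risers lie below it, with Ngp farthest right (3.61 against 0.81).

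Values by batch were as follows. In the first batch alone 1617 genes were higher (11.9%) and 493 lower (3.64%), and in the second 44 higher (0.319%) and 191 lower (1.38%). A test of the difference between batches called 2897 of 14046 genes (20.6%), and 11 once the 4 libraries were left out. Of the risers 81 were called in the first batch alone and 4 in the second alone, with medians of 0.63 and 0.26. Of the genes that fell 136 and 91 were called, with medians of -0.67 and -0.54. Leukocyte lists turned sign between the batches: the pan-leukocyte median was 1.67 in the first and -0.54 in the second, and the Kupffer cell median 1.76 and -0.62. None of the 10 and 12 genes of these lists was called by the drug term, while the drug effect differed between the batches for all 10 and for 11 of the 12.

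The lists below give the groups for which the drug term made few calls. No gene of 29 STAT3 acute-phase proteins, 9 MHC class II genes, 53 Myc targets of ribosome production, 24 sterol synthesis genes, 34 fatty acid oxidation genes or 20 clock genes was called. The acute-phase genes Lcn2 and Saa2 were at 2.89 ± 0.89 (adjusted p = 0.0687) and 2.90 ± 0.93 (adjusted p = 0.083), with library 864 at 5560 CPM for Lcn2 and a highest drug value of 1194 CPM once it and the other 3 were left out. The median of the acute-phase list was 0.22 with and -0.14 without the 4 libraries, where 2 of its genes, Serpina3g and Steap4, were called lower. By batch its medians were 0.46 and -0.21, and 6 of the 29 differed between batches, a share close to the 20.6% of all tested genes. The MHC class II median was 0.44 with and 0.02 without the 4 libraries, and 1.28 and -0.18 by batch, with 6 of the 9 genes differing between batches. The pan-leukocyte median likewise was 1.67 and -0.54, and its part in the MHC class II values was not tested. For Myc targets the median was -0.08 with all libraries and -0.04 without the 4.

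**Figure D4:**
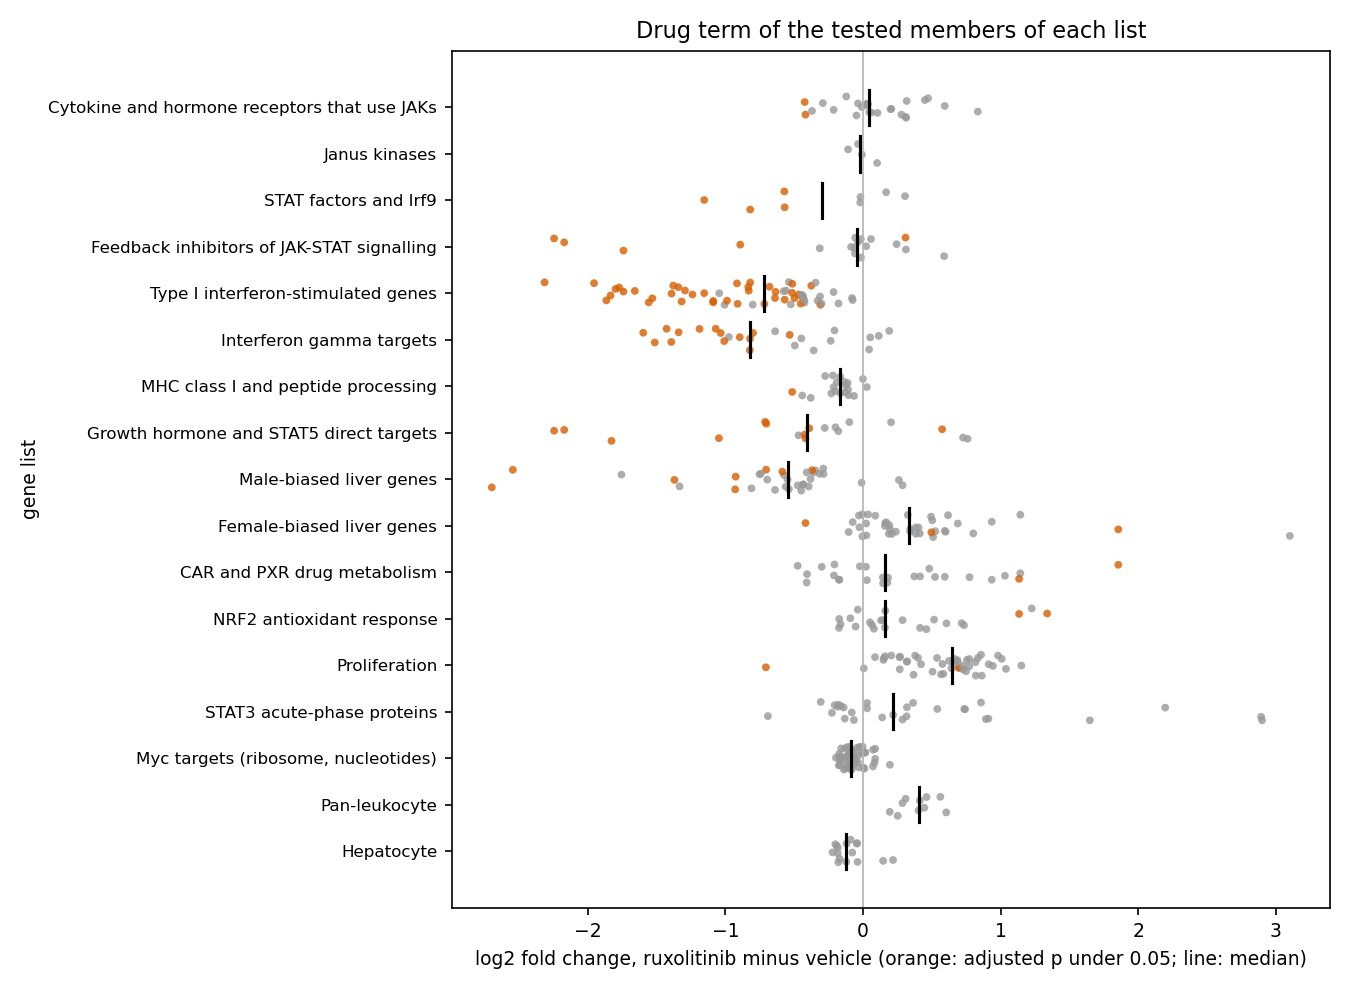
Log2 fold change of ruxolitinib against vehicle for each tested member of 17 gene lists; orange points passed the test (adjusted p under 0.05), grey points did not, and black lines are medians. Interferon, growth hormone and male-biased lists lie left of 0 with many calls, and the proliferation list lies right of 0 (median 0.65) with 1 call higher and 1 lower.

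The drug effect was also tested for a difference between the vectors, which the additive model takes as equal. No gene passed in edgeR (0 of 14046, 0%), and DESeq2 called 2. In edgeR 735 of the 14046 had an unadjusted p under 0.05, close to the share of 0.05 that chance alone gives. In the other direction, 8 genes called with a single vector were not called by pooling. Eps15, an endocytic adaptor, was lower with mApple (-0.35 ± 0.053, adjusted p = 0.00613) and at 0.02 ± 0.11 with Myc, which gave -0.12 ± 0.070, adjusted p = 0.352, in the pooled fit. Grk3, a receptor kinase and the 1 riser among the 8, was at 0.10 with mApple, 0.92 with Myc (adjusted p = 0.0347) and 0.58 pooled (adjusted p = 0.0597).

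Leaving out 1 library at a time changed the risers more than the genes that fell. The number higher ran from 50 without library 860 to 180 without library 869, and the number lower from 165 without library 865 to 240 without library 1152. Of the 119 risers 31 stayed called whichever library was removed, among them Acrbp, Fam107b, Cyp2b10, Egln3, Pias3, Adora1, Cnnm4, Agpat1, Irs1 and Skp2, and of the 194 genes that fell 153 did.

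**Figure D5:**
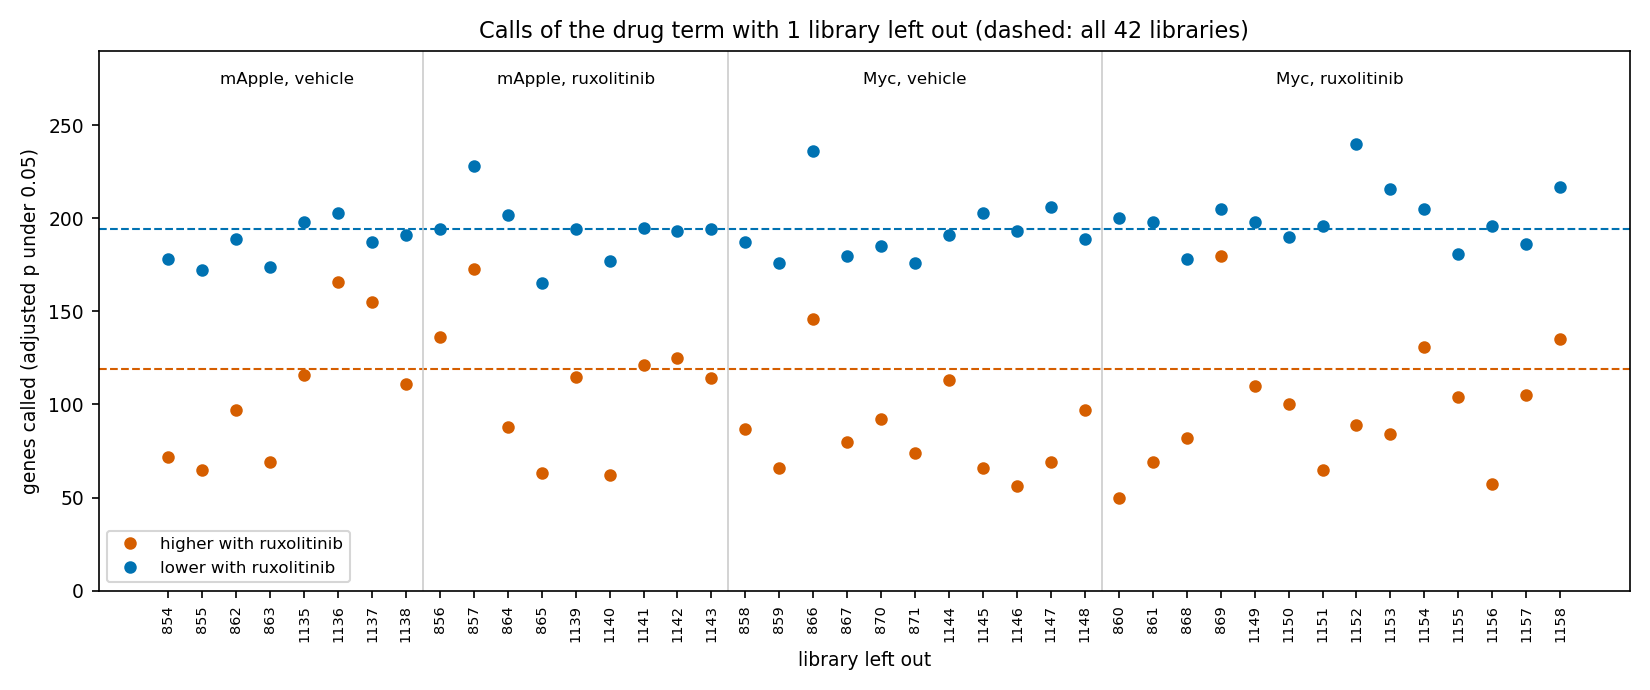
Number of genes called higher (orange) and lower (blue) by the drug term when the library named on the horizontal axis is left out, grouped by vector and drug; dashed lines are the counts with all 42 libraries, 119 and 194. The counts of risers spread from 50 to 180 and fall below the dashed line for most libraries, and the counts of genes that fell spread from 165 to 240.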

How the data were processed

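RNA of whole liver was sequenced after poly(A) selection. The authors deposited 1 table of raw exon counts for 24537 genes in 58 libraries, made with STAR and HOMER on mm10 (GRCm38), per the submitters' processing notes, with 1 transcript per symbol. Versions and the strand setting are not given in the sources used here. The values the authors deposited were taken to be estimated counts: HOMER counted reads in exons, per the submitters' processing notes, and 29.9% of them are not whole. They were rounded before fitting. Reads shared by close copies (Ifit3, Apol9a, Apol9b, C4a, Hsd3b5, Saa2, Gstm3 and the Cyp2a, Cyp2b, Cyp2c and Cyp3a genes) or by overlapping genes are uncertain.

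The 42 old libraries were fitted with edgeR 4.0.16 (quasi-likelihood test, TMM, filterByExpr with a minimum count of 10, Benjamini-Hochberg adjustment over all tested genes) in R 4.3.3, with limma 3.58.1 and DESeq2 1.42.0 as alternatives. The standard error is the log2 fold change divided by the square root of F. Fits per vector held drug and batch. A gene was gained if called by the drug term and in neither fit per vector. The script was tested on simulated data. The 16 young libraries entered 1 alternative only. A promoter counted once per symbol if any of its windows held the motif.

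The members and gene lists were chosen with earlier results of these data known, and the lists share genes. Some genes that the rule names are not reported here. Named genes are Ifit1, Socs2, Cish, Igf1, Bcl6, Stat2, Stat3, Jak1, Jak2 and Myc; the 15 higher and 15 lower called genes with the smallest p; the 15 higher and 10 lower gained genes with the largest change (both at a mean log2 CPM of at least 1, predicted genes left out); and the 4 members of each list with the smallest p. Ifit3, Rsad2, Socs1, Igfals, Onecut1, Hsd3b5, C8b, Hc, Cbr1, Cdkn2c, Cdkn1b, Skp2, Grk3, Eps15, Dhx58, Ifih1, Cyp2b13, Cyp3a11, Cyp2c55, Pnldc1 and the genes named in counts without a value were chosen after their values were seen.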

Additional observations from a re-analysis of the deposited data

Results flagged for a closer look

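In the groups of 8 and 9 mApple livers, 206 sets of values were examined for a library far from the rest of its group, and 46 had one. Each flagged library held the highest value of its group. Chance gives about 1 in 20 for normally distributed values. The CPM values were not transformed, so that rate may not hold here, and the sets share libraries. Library 1136, mApple with vehicle, was highest for the interferon-stimulated genes Isg15 (27.4 CPM), Rsad2 (48.6), Mx2 (18.6), Oas1b (5.68), Cmpk2 (33.0), Parp14 (73.2), Adar (54.2), Usp18 (32.1), Gbp6 (58.3), Ddx60 (15.7), Slfn5 (37.2), Apol9b (200.3), Dhx58 (33.8) and Ifih1 (64.5), and for Sipa1l2 (9.83). With mApple and ruxolitinib, library 1140 was far from the rest for Isg15 (11.2 CPM), Apol9b (109.6) and Dhx58 (17.0), library 1143 for Socs2 (19.5), Cish (29.0) and Onecut1 (10.8), and library 857 for Igtp (74.6) and Cyp2b13 (9.96).

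Library 864, mApple with ruxolitinib, was far from its group for Ngp (224 CPM), Lcn2 (5560), Saa2 (14127), Jak3 (47.2) and Gskip (19), and for the summed markers of monocytes (1647), neutrophils (1032) and bile duct cells (957.6). Library 865 of that group was so for Fam107b (130.3 CPM), Egln3 (45.5), Sipa1l2 (12.5), Cntnap1 (18.5), Ly6d (63.6), Cbr3 (11.8), Cbr1 (131.6), Cyp2a4 (218.6) and summed stellate cell markers (1502). Among mApple livers with vehicle, library 855 was so for Serpina4-ps1 (191 CPM) and Myc (57.5), library 862 for Ngp (3.38) and bile duct markers (263), and library 1137 for Lcn2 (384.8) and Saa2 (1044).

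The drug effect differed between the batches for 14 of 92 named genes (edgeR, adjusted p under 0.05). Over all tested genes it did so for 2897 of 14046 (20.6%). The second batch minus the first was positive on the log2 scale for Stat2 (0.39), Irgm2 (1.02), Irs1 (0.36) and Pnldc1 (0.80). It was negative for Oas3 (-2.24), Ifi211 (-1.47), Ifngr1 (-1.13), Jak1 (-0.35), Sipa1l2 (-0.80), Ngp (-5.03), Pf4 (-4.13), Ly6d (-2.42), Cdc25b (-1.44) and Mest (-0.93).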

How the results depend on the processing

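The cause of the changes below was not tested. DESeq2 called 503 genes (215 higher), 141 with mApple, 177 with Myc and 2 for drug by vector. limma voom called 546 (187 higher, 359 lower; 172 gained lower), 85 with mApple and 201 with Myc. Without a batch term 126 were called (26 higher, 100 lower; 24 and 54 gained), 26 with mApple and 44 with Myc. The first batch alone gave 2110 (1617 higher, 493 lower; 864 and 409 gained), 6 with mApple and 907 with Myc; the second gave 44 higher (42 gained higher, 179 gained lower), 11 with mApple and 9 with Myc. Without the 4 libraries 31 were higher (22 gained) and 11 differed between batches. The mean of the vectors' effects gave 73 higher, and a fit of all 58 libraries 477 (195 higher). Leaving out each library gave 50 to 180 higher, 44 to 167 gained higher, 20 to 75 with mApple and 48 to 83 with Myc. RLE size factors gave 103 higher and 198 lower, and rounding values ending in 0.5 up, chosen after seeing the data, 113 and 193. Signs turned with voom for Lcn2 (-0.38) and Saa2 (-0.38), in the first batch for Jak1 (0.16), Jak2 (0.19), Jak3 (0.12) and Eps15 (0.065), and in the second for Ifngr1 (-0.043), Tyk2 (-0.015), Lcn2 (-0.16) and Saa2 (-0.45). Jak2 ran from -0.065 to 0.018 over the fits that leave out 1 library. No paired analysis was possible because the replicate numbers are library numbers, each used once. Depth limits scarce genes such as Socs1 and Ngp.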

Other observations

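Some further genes of the interleukin 6 and interferon responses were called lower only in the fit without the 4 libraries. Osmr, the oncostatin M receptor, was at -0.37 with all 42 libraries (adjusted p = 0.119) and at -0.60 without the 4 (adjusted p = 0.000608). Socs3, the feedback inhibitor induced by STAT3, was at -0.31 (adjusted p = 0.615) and -1.0 (adjusted p = 0.0248). These genes were chosen after their values were seen.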
